A study of Rattus norvegicus with 16 samples.

Results

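The genes described here are Pgd, Taldo1, Tkt, Me1 and Idh1, chosen by name as enzymes of the cell's NADPH supply. On the array 4 of the 5 were measured, among 15284 named genes. Taldo1 and Tkt had 1 probe each, Me1 had 3 and Idh1 had 2, and all 7 probes were well above background on all 16 arrays. No probe was paired with Pgd, so it was not analysed here. The arrays hold total RNA from the outer medulla of the kidney of male Crl:CD Sprague-Dawley rats, 5 weeks old at the start of dosing. ANP rats were gavaged once daily with 750 mg/kg of 2-amino-4-nitrophenol, a nitroaromatic hair dye component, in corn oil, and vehicle control (VC) rats received corn oil. On days 1 and 7 there was 1 array per group, hybridised with the mixed RNA of 3 animals, so those days carry no error and no test. On days 14 and 28 there were 3 arrays per group, each of 1 animal taken from a group of 4 or 5. The outer medulla is a mixture of tubule segments, and in such bulk RNA fewer cells of a type cannot be told apart from less RNA per cell.

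NADPH is the reduced cofactor that cells spend on regenerating glutathione and thioredoxin, on reducing quinones and aldehydes, and on building fatty acids. In the cytosol it is made by the oxidative branch of the pentose phosphate pathway, to which 6-phosphogluconate dehydrogenase (Pgd) belongs, by malic enzyme (Me1), which turns malate into pyruvate, and by cytosolic isocitrate dehydrogenase (Idh1), which turns isocitrate into 2-oxoglutarate. Transketolase (Tkt) and transaldolase (Taldo1) make no NADPH themselves. They form the non-oxidative branch, which carries pentose phosphates back to sugars that can enter the oxidative branch again. The proximal tubule of the kidney, which handles filtered xenobiotics, is known for a high demand for glutathione.

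Levels are given as multiples of the 75th percentile of all probe signals on the same array, and differences as log2 ratios of ANP over VC. The 16 arrays were close in quality, with 64.75% to 69.6% of probes well above background, 0 to 9 outlier spots and no saturated spot. Arrays of the same group correlated at r = 0.987 to 0.993. The slides limit the comparisons: slide 1 held the 3 VC arrays and ANP replicate 1 of day 14, slide 2 held the other two ANP arrays of day 14 with the 3 VC arrays of day 28, slide 3 held the 3 ANP arrays of day 28, and slide 4 held the 4 pools. At day 28, slide and treatment cannot be told apart. Levels of cell type markers were not the same in all groups. The 8 convoluted proximal tubule markers belong to the cortex. Their summed level was 380 to 449 on ANP arrays and 516 to 562 on VC arrays of day 28. It was 231 to 291 on ANP arrays and 242 to 429 on VC arrays of day 14. The 7 glomerulus markers summed to 16.3 to 17.8 on ANP arrays and 26.6 to 35.0 on VC arrays of day 28. The 5 erythroid markers summed to 522 to 782 on ANP arrays and 291 to 364 on VC arrays of day 28. The 7 tubular injury markers summed to 72.8 to 138 on ANP arrays and 42.0 to 91.8 on VC arrays of day 14, which overlap, while their mean log2 level, 1.05 to 2.33 on ANP arrays and 0.56 to 0.91 on VC arrays, did not. Both measures overlapped at day 28. In the pools of day 1 the tubular injury markers summed to 232 with ANP and 57.1 with VC. The straight proximal tubule markers summed to 554 with ANP and 987 with VC in those pools, and to 989 and 959 in the pools of day 7. The part of these markers in the pool ratios given below was not tested. Summed levels of the 8 straight proximal tubule markers, a segment the outer medulla should hold, overlapped between ANP and VC arrays on days 14 and 28. The thick ascending limb is another such segment. Its 9 markers summed to 970 to 1075 on ANP arrays and 873 to 1012 on VC arrays of day 28, which overlap. Their mean log2 level, 4.16 to 4.27 on ANP arrays and 3.77 to 4.14 on VC arrays, did not overlap that day.

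The bases just upstream of the 4 measured genes are shown so that the letters at their starts can be set beside the values of each gene. The windows are the 250 bases before each annotated start in the RefSeq annotation of rat assembly GRCr8, and lie at chr16:5729982-5730231 (plus strand) for Tkt, chr1:205922946-205923195 (plus strand) for Taldo1, chr8:96540245-96540494 (minus strand) for Me1 and chr9:74049475-74049724 (minus strand) for Idh1. Capitals mark matches to TGACNNNGC, the core of the antioxidant response element.
Tkt: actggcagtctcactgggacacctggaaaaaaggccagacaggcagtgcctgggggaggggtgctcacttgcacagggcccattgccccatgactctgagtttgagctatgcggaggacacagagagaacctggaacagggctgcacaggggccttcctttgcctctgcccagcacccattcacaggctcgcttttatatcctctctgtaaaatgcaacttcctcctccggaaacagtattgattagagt
Taldo1: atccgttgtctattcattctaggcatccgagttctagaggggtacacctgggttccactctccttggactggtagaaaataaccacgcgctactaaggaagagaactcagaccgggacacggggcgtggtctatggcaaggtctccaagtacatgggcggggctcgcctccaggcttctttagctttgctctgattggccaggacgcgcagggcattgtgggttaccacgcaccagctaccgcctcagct
Me1: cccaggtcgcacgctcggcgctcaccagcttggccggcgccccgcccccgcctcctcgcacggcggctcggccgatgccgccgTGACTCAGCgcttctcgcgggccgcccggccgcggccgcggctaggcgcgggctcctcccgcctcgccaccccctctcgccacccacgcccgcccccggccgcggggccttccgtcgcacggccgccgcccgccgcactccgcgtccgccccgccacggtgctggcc
Idh1: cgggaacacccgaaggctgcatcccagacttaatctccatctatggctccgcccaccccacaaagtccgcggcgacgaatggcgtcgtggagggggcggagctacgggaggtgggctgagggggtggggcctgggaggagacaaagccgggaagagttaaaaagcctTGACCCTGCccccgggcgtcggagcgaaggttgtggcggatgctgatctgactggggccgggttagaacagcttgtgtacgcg
The Me1 window held TGACTCAGC at bases -167 to -159 from the start. Its first 7 bases are also a match to TGANTCA, the AP-1 site. The Idh1 window held TGACCCTGC at bases -83 to -75. The core was found, on either strand, in 10.1% of the 33469 promoter windows of the table, and TGANTCA in 6.34%. Windows of Tkt and Taldo1 held neither, and none of the 4 held CACGTG, the E-box, or TGATGNAA, an ATF4-type element, which occur in 5.59% and 3.40% of windows. The window of Nqo1, a quinone reductase that rose with ANP at day 28, held 0 matches to each of these motifs in the same search. The lack of a match in 250 bases thus does not set a gene apart from those that rose. A match of letters is a description of the sequence and does not show that a factor binds there.

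Tkt, Taldo1 and Me1 had a higher mean signal with ANP on every day, and Idh1 did not. The limma fit across 11849 genes called none of the 4 at day 14, Me1 and Taldo1 at day 28, and Tkt, Taldo1 and Me1 for the mean of the 2 days. Each ratio of these 3 genes was under 2-fold apart from that of Tkt in the pools. Among all genes the fit called 43 higher and 14 lower at day 14 (69 and 50 with normexp background correction) and 532 higher and 319 lower at day 28 (773 and 244 with each array scaled to its median). These counts, and the shares of genes called that are given below, depend on single arrays: leaving out 1 array gave 0 to 69 higher and 1 to 26 lower at day 14, with the fewest without ANP replicate 3 of day 14, and 146 to 554 higher and 62 to 421 lower at day 28, with the fewest without VC replicate 1 or 2 of day 28.

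**Figure D1:**
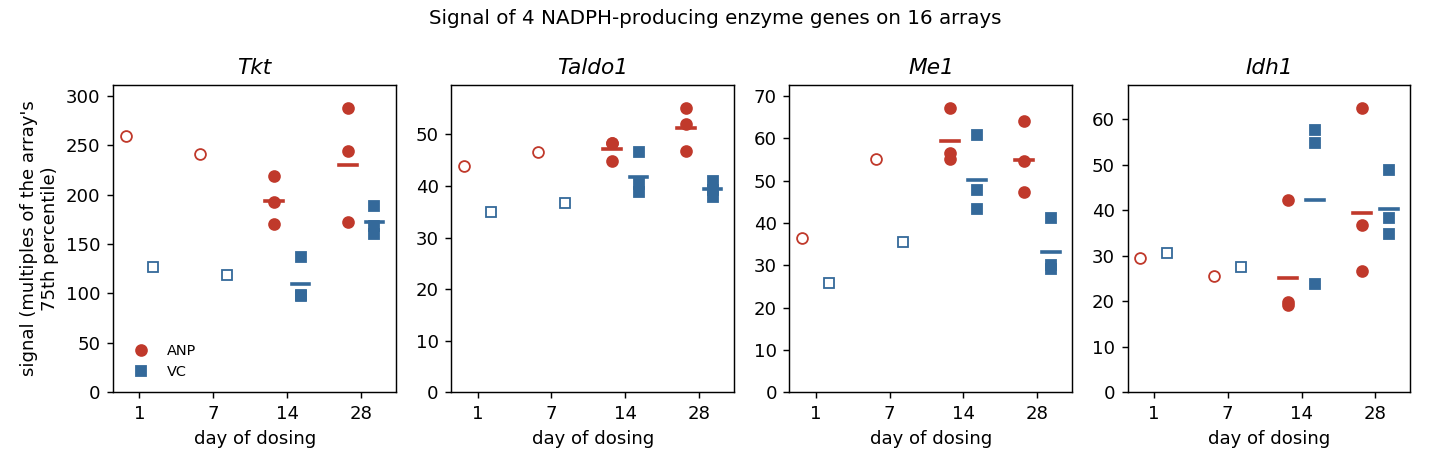
Signal of Tkt, Taldo1, Me1 and Idh1 on each array, as multiples of that array's 75th percentile, by day of dosing, with ANP (red) left of VC (blue). Open symbols are pools of 3 animals, filled symbols single animals and bars geometric means of 3 arrays. The groups do not overlap for Tkt at day 14 or for Taldo1 and Me1 at day 28, while Idh1 overlaps on both days.

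Tkt transfers 2-carbon units between sugar phosphates. Its level was 259 in the ANP pool and 127 in the VC pool of day 1, and 241 in the ANP pool and 118 in the VC pool of day 7, a log2 ratio of 1.03 on each day. At least 2-fold higher signal was found for 4.83% of 12413 genes on day 1 and 2.12% of 12122 genes on day 7, and Tkt was the 1 member among them on both days. At day 14 the ANP arrays gave Tkt levels of 170, 219 and 193, against 137, 97.8 and 98.9 on the VC arrays. All 3 ANP arrays lay above all 3 VC arrays, and Tkt was the 1 member of 4 with no overlap that day, in the direction in which 10.2% of all genes had none. The log2 ratio was 0.81 ± 0.19 (SE, n = 3 each), or 1.76-fold, with a limma adjusted p of 0.111. ANP replicate 1, the array that shared slide 1 with the VC arrays, stood 0.63 above their mean on the log2 scale.

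At day 28 Tkt levels were 173, 288 and 245 on the ANP arrays, against 160, 188 and 169 on the VC arrays. The groups overlapped, with ANP replicates 2 and 3 above every VC array and ANP replicate 1 level with the VC mean (log2 difference 0.01). The log2 ratio was 0.42 ± 0.19 (limma adjusted p = 0.2), and 0.26 without ANP replicate 2. With limma's array weights, which count arrays that fit the group means poorly for less, Tkt was called on both days, at 0.87 with an adjusted p of 0.0445 on day 14 and 0.62 with an adjusted p of 0.0143 on day 28. Those weights also called more of all 11849 genes higher, 106 at day 14 and 1520 at day 28, against 43 and 532 without them. Over both days the mean log2 ratio was 0.62 ± 0.14, or 1.53-fold (adjusted p = 0.0221), and the 95% confidence interval was 0.31 to 0.92. That call was lost with quantile normalisation (0.49, adjusted p = 0.0568) and when VC day 14 replicate 2 (0.57, 0.0513), ANP day 14 replicate 3 (0.62, 0.0511) or VC day 28 replicate 1 (0.59, 0.0548) was left out.

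The Tkt level of the VC rats was itself not constant. It averaged 110 at day 14 and 172 at day 28 (geometric means, n = 3 each), and no VC array of day 14 reached the lowest of day 28. The log2 difference, VC day 28 minus VC day 14, was 0.65 ± 0.19, with a limma adjusted p of 0.0581 in a comparison in which 11.1% of genes were called. The VC arrays of day 14 were all on slide 1 and those of day 28 all on slide 2, and with slide as a fixed block the difference was 0.37 (adjusted p = 0.705). The ANP arrays of day 14 fell on both sides of the highest VC array of day 28. Ordered by level, the 4 ANP groups of Tkt stood above the 4 VC groups, from the ANP pool of day 1 at the top to VC of day 14 at the bottom, but ANP of day 14 (193) and VC of day 28 (172) are neighbours whose arrays overlap.

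Taldo1 exchanges 3-carbon units between the same sugar phosphates. Its level was 43.9 in the ANP pool and 34.9 in the VC pool of day 1, and 46.6 in the ANP pool and 36.8 in the VC pool of day 7, log2 ratios of 0.33 and 0.34. At day 14 it was 48.3, 48.4 and 44.8 on the ANP arrays, against 46.5, 38.9 and 40.3 on the VC arrays. VC replicate 1 lay above ANP replicate 3, so the groups overlapped, and the log2 ratio of 0.17 ± 0.09 did not pass (limma adjusted p = 0.467). At day 28 it was 52.1, 55.2 and 46.7 on the ANP arrays, against 37.9, 39.3 and 41.0 on the VC arrays.

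At day 28 every ANP array of Taldo1 lay above every VC array. This was so, with ANP higher, for 18.6% of all genes and for 2 of the 4 members. Taldo1 rose by a log2 ratio of 0.38 ± 0.09, or 1.30-fold (limma adjusted p = 0.0387, 95% confidence interval 0.17 to 0.59). The call is close to the threshold: it was lost with quantile normalisation (0.26, adjusted p = 0.0686), with normexp background correction (0.13, 0.262), with no filter on dim probes (0.38, 0.0544) and in a fit of the 2 day-28 groups alone (0.38, 0.0823). It held when ANP replicate 3 was left out and was lost when any other single array was left out, with log2 ratios of 0.33 to 0.45 throughout. The mean of both days was 0.28 ± 0.07 (adjusted p = 0.0278), higher on 6 of 6 ANP arrays than the mean of the VC arrays of the same day, and that call was lost on leaving out any of 7 of the 12 arrays, all except VC replicate 1 and ANP replicate 3 of day 14 and VC replicate 3 and ANP replicates 1 and 3 of day 28 (highest adjusted p 0.0715, with a log2 ratio of 0.26, without VC day 28 replicate 1).

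Taldo1 was the steadiest of the 4 genes. Its pooled SD within groups was 0.10 on the log2 scale, smaller than that of 82.5% of the genes tested, and its highest level over the 16 arrays was 1.58 times its lowest. Its VC level differed little between the days, at 41.8 on day 14 and 39.4 on day 28 (log2 difference, VC day 28 minus VC day 14, -0.09 ± 0.09, limma adjusted p = 0.617). Over the 12 single-animal arrays Taldo1 correlated most strongly with the mean log2 level of 9 collecting duct markers (r = -0.73) and 6 endothelial markers (r = -0.64). At day 28 limma called 2 of the 9 and 1 of the 6 lower, beside 2.69% of all genes. The part of these markers in the Taldo1 difference was not tested.

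Me1 turns malate into pyruvate and in liver and fat supplies NADPH for fatty acid synthesis. Its level was 36.5 in the ANP pool and 25.9 in the VC pool of day 1, and 55.2 in the ANP pool and 35.5 in the VC pool of day 7, log2 ratios of 0.49 and 0.63. At day 14 it was 67.3, 55.2 and 56.7 on the ANP arrays, against 43.2, 47.7 and 60.9 on the VC arrays. The groups overlapped, since VC replicate 3 lay above ANP replicates 2 and 3, and the log2 ratio was 0.25 ± 0.18 (limma adjusted p = 0.605). At day 28 Me1 was 47.3, 54.6 and 64.1 on the ANP arrays, against 30.0, 41.2 and 29.1 on the VC arrays.

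At day 28 the lowest ANP array of Me1 lay above the highest VC array. Me1 rose by a log2 ratio of 0.73 ± 0.18, or 1.66-fold (limma adjusted p = 0.0366, 95% confidence interval 0.34 to 1.12). With Taldo1 it made 2 members of 4 called higher at day 28, where 4.49% of all 11849 genes were called higher. At day 14, where 0.363% of genes were called higher, 0 of 4 members were called, and 1 of the 4, Tkt, had an unadjusted limma p under 0.05. Averaged over the 2 days the count was 3 of 4, against 6.14% of all genes. For Me1 this average was 0.49 ± 0.12 (adjusted p = 0.0351).

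The other probes of Me1 gave the same picture. Probe A_43_P11481 read 9.20, 10.4 and 12.3 on the ANP arrays, against 5.57, 6.33 and 4.99 on the VC arrays of day 28, a log2 ratio of 0.91 ± 0.15. Probe A_64_P136153 read 11.7, 12.5 and 15.5 on the ANP arrays, against 7.15, 9.74 and 6.82 on the VC arrays, a log2 ratio of 0.75 ± 0.16. Neither overlapped between the groups. In a limma fit over all 41223 probes above background, which called 3.84% of probes higher at day 28, the 3 Me1 probes had adjusted p of 0.013, 0.0259 and 0.0398. Over the 16 arrays the 3 probes correlated at r = 0.979 to 0.981. They read the same RNA samples and are not replicates.

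The Me1 call also lay close to the threshold. It was lost with quantile normalisation (0.60, adjusted p = 0.117), with normexp background correction (0.66, 0.0713), with no filter on dim probes (0.73, 0.0528) and in a fit of the 2 day-28 groups alone (0.73, 0.0753). Leaving out VC replicate 1 (0.66, 0.122), VC replicate 3 (0.64, 0.101), ANP replicate 2 (0.74, 0.0912) or ANP replicate 3 (0.62, 0.0761) of day 28 ended it too. In the average over both days, the first 3 of those settings and 9 of the 12 omissions of 1 array ended the call, all except VC replicate 3 of day 14 and VC replicate 2 and ANP replicate 1 of day 28, with log2 ratios of 0.42 to 0.57 throughout. With slide as a random block the day-28 values were 0.75 for Me1 (adjusted p = 0.0123) and 0.38 for Taldo1 (0.0139), but slide 3 held ANP arrays alone, so that fit cannot separate slide from treatment. Its estimated correlation within slides was -0.089, and it called 1098 of all 11849 genes higher at day 28, against 532 without the block.

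As with Tkt, the VC level of Me1 differed between the days, in the opposite direction. It averaged 50.1 at day 14 and 33.0 at day 28, with no overlap between the VC arrays of the 2 days (log2 difference, VC day 28 minus VC day 14, -0.60 ± 0.18, limma adjusted p = 0.0536). This too compares slide 2 with slide 1, and with slide as a fixed block it was -0.33 (adjusted p = 0.71). The ANP levels were nearly level, at 59.5 on day 14 and 54.9 on day 28. The ANP arrays of day 28 thus spanned nearly the same range, 47.3 to 64.1, as the VC arrays of day 14, 43.2 to 60.9. The glomerulus and cortical proximal tubule markers given above were also higher on VC arrays of day 28 than on the other single-animal arrays. Adipocytes, which express Me1, were followed by 6 markers, whose summed level was 6.82 to 7.63 on ANP arrays and 3.92 to 6.04 on VC arrays of day 28. Their mean log2 level overlapped, at -1.77 to -1.32 on ANP arrays and -1.99 to -1.47 on VC arrays. None of the 6 was called that day, and Lep, a further defining marker, was well above background on 0 arrays. Over the 12 single-animal arrays Me1 correlated with the mean log2 level of the adipocyte markers at r = 0.56. With the erythroid, glomerulus, convoluted proximal tubule and thick ascending limb markers r was 0.74, -0.73, -0.71 and 0.69. The part of any of these markers in the Me1 difference was not tested.

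Idh1, the cytosolic isocitrate dehydrogenase, was not called by limma at day 14, at day 28 or for their mean. Its level was 29.4 in the ANP pool and 30.5 in the VC pool of day 1, and 25.5 in the ANP pool and 27.5 in the VC pool of day 7, log2 ratios of -0.05 and -0.11. At day 14 it was 19.8, 19.1 and 42.2 on the ANP arrays, against 57.6, 23.8 and 54.8 on the VC arrays. At day 28 it was 36.8, 62.6 and 26.7 on the ANP arrays, against 38.4, 48.9 and 34.9 on the VC arrays. The groups overlapped on both days, and single arrays of either group lay at either end of the range.

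The log2 ratios of Idh1 were -0.74 ± 0.43 at day 14 (limma adjusted p = 0.501) and -0.03 ± 0.43 at day 28 (0.975), the second turning positive with median scaling (0.031) and with array weights (0.32). Their 95% confidence intervals, -1.69 to 0.20 and -0.97 to 0.91, leave room for differences as large as those of the other genes in both directions at day 28. The second Idh1 probe gave -0.78 and 0.02 and correlated with the first at r = 0.994 over the 16 arrays, so the spread was seen by both probes. The pooled SD within groups was 0.59 on the log2 scale, against a median of 0.17 over the genes tested, and 4.21% of genes had a larger one. The SDs of Tkt and Me1 were 0.26 and 0.23.

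**Figure D2:**
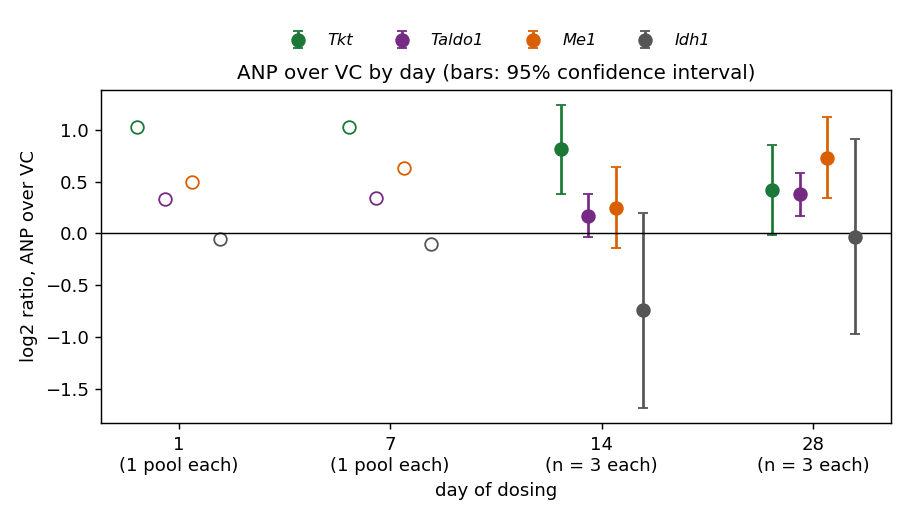
Log2 ratio of ANP over VC for the 4 genes by day of dosing. Open circles are ratios of 1 pool per group, filled circles are limma estimates from 3 arrays per group and bars are 95% confidence intervals, which lie wholly above 0 for Tkt at day 14 and for Taldo1 and Me1 at day 28 and are widest for Idh1.

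Whether the treatment effect differed between day 28 and day 14 was tested as the difference of the 2 log2 ratios, day 28 minus day 14. It was -0.39 ± 0.27 for Tkt (adjusted p = 0.67), 0.21 ± 0.13 for Taldo1 (0.652), 0.49 ± 0.25 for Me1 (0.571) and 0.71 ± 0.60 for Idh1 (0.726). The limma fit called 0 of 11849 genes, and 1098 had an unadjusted p under 0.05, none of them a member as read from its brightest probe. The 95% confidence interval for Me1 was -0.07 to 1.04 and that for Tkt -1.0 to 0.22, while the other probes of Me1 gave 0.74 (unadjusted p = 0.0060, adjusted over all probes 0.374) and 0.59 (0.024 and 0.447) in the limma fit over probes. The data thus do not settle whether either effect changed between the days.

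The pentose phosphate pathway was also read from 10 further genes. At day 28, 1 of them rose and none fell, with a median log2 ratio of 0.15, beside a median of 0.02 over all genes, of which 4.49% were called higher and 2.69% lower. That gene was Pgls, the lactonase that makes the substrate of Pgd. It was 7.79, 6.37 and 5.70 on the ANP arrays of day 28, against 3.91, 4.48 and 4.80 on the VC arrays. Every ANP array of Pgls lay above every VC array, as was so for 18.6% of all genes. It rose by 0.58 ± 0.14 (limma adjusted p = 0.0376), a call lost with no filter on dim probes (0.0537), in a fit of the 2 groups alone (0.0786) and on leaving out any day-28 array but ANP replicate 3 (log2 ratios 0.46 to 0.68).

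The remaining genes of the list were not called at day 28. They include Rpe and Rpia, which interconvert the pentose phosphates, and H6pd, which makes NADPH inside the endoplasmic reticulum (0.07 ± 0.11, adjusted p = 0.732). Averaged over both days, 2 genes of this list rose and none fell, where 6.14% of all genes were called higher and 4.08% lower. They were Pgls and Pgm2, the second by 0.24 ± 0.07 with a limma adjusted p of 0.0498, just under the threshold. At day 14 the list had 0 calls, and all genes 0.481% in either direction. The transketolase-like genes Tktl1 and Tktl2 were not well above background on any array.

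**Figure D3:**
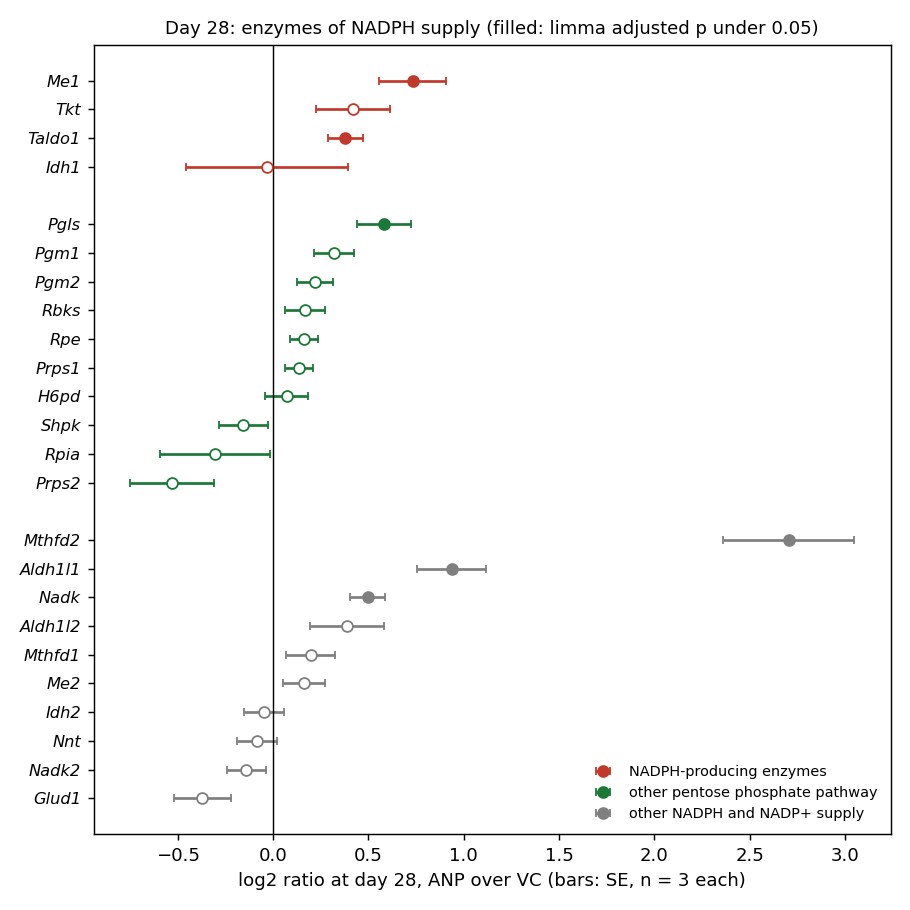
Log2 ratio of ANP over VC at day 28 with its SE (n = 3 each) for the 4 measured genes, 10 other genes of the pentose phosphate pathway and 10 other genes listed for NADPH and NADP+ supply. Filled circles have a limma adjusted p under 0.05, among them Pgls at 0.58, Me1 at 0.73 and Mthfd2 at 2.70.

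Among 10 other genes listed for NADPH and NADP+ supply, 3 rose and none fell at day 28, with a median log2 ratio of 0.18. Which cofactor each enzyme used was not measured, so the count is not one of NADPH made. Of all genes, 4.49% were called higher and 2.69% lower that day. Mthfd2, a mitochondrial enzyme of the folate cycle, was 0.82, 2.00 and 2.27 on the ANP arrays, against 0.21, 0.30 and 0.22 on the VC arrays (2.70 ± 0.34, limma adjusted p = 0.00474). Aldh1l1, which oxidises 10-formyltetrahydrofolate with NADP+, was 24.4, 38.1 and 37.5 on the ANP arrays, against 17.3, 17.2 and 16.7 on the VC arrays (0.94 ± 0.18, adjusted p = 0.0175). Nadk, the kinase that makes NADP+ from NAD+, was 7.04, 6.76 and 6.26 on the ANP arrays, against 4.49, 4.75 and 4.97 on the VC arrays (0.50 ± 0.09, adjusted p = 0.0138). For each of the 3, every ANP array of day 28 lay above every VC array, as was so for 18.6% of all genes. The calls of Aldh1l1 and Nadk were lost on leaving out VC replicate 1, VC replicate 2 or ANP replicate 2 of day 28 (log2 ratios 0.46 to 0.95, highest adjusted p 0.0642). In the pools of day 1 the median log2 ratio of the 10 genes was -0.26, with 1 above 0, beside -0.04 over all genes. On day 7 it was 0.20, with 6 above 0, beside 0.04 over all genes.

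Of the mitochondrial enzymes of the list at day 28, Idh2, the NADP+-dependent isocitrate dehydrogenase of mitochondria, had -0.05 ± 0.11 (limma adjusted p = 0.813), the mitochondrial malic enzyme Me2 had 0.16 ± 0.11 (0.367) and the transhydrogenase Nnt had -0.09 ± 0.11 (0.643). Glud1, glutamate dehydrogenase, fell in the average over both days (-0.52 ± 0.10, adjusted p = 0.0151), where 4.08% of all genes were called lower.

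Enzymes that spend NADPH were read from a list of 21 reductases, with calls counted gene by gene. Of these, 6 rose and none fell at day 28, where 4.49% of all genes were called higher and 2.69% lower. The median log2 ratio of the list was 0.17. The 6 were Nqo1, the quinone reductase (3.70 ± 0.53, limma adjusted p = 0.00701), Gsr, glutathione reductase (0.56 ± 0.12, 0.026), Akr1b8 and Akr7a3, both aldo-keto reductases (5.14 ± 1.12, 0.0267, and 1.38 ± 0.15, 0.00306), Ptgr1, prostaglandin reductase (1.84 ± 0.37, 0.0211), and Blvrb, biliverdin reductase B (0.60 ± 0.12, 0.0172). Gsr was 2.03, 2.71 and 2.48 on the ANP arrays, against 1.58, 1.75 and 1.53 on the VC arrays. In a fit of the 2 groups alone Gsr (0.0703), Akr1b8 (0.0637) and Ptgr1 (0.0624) did not pass, and without VC replicate 1, VC replicate 2 or ANP replicate 2 of day 28 the list's count was 2. Over the 6 omissions of 1 day-28 array, the call of Gsr held in 1, those of Akr1b8 and Ptgr1 in 2 each and that of Blvrb in 3. Those of Nqo1 and Akr7a3 held in all 6.

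Fatty acid synthesis, the pathway that Me1 supplies in liver and fat, was read from 9 genes besides Me1. At day 28 limma called 0 of them, beside 4.49% of all genes called higher and 2.69% lower, with a median log2 ratio of -0.03. Acly, ATP citrate lyase, had -0.25 ± 0.09 (limma adjusted p = 0.105) and Fasn, fatty acid synthase, -0.28 ± 0.14 (0.237). Fasn fell for the mean of both days, by 0.44 on the log2 scale (adjusted p = 0.0252), while Me1 rose. It was the 1 gene of the 9 called lower for that mean, beside 4.08% of all genes.

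Over the 16 arrays the log2 levels of Taldo1 correlated with those of Tkt (r = 0.65) and Me1 (r = 0.66), Tkt and Me1 correlated at r = 0.25, and Idh1 correlated with the other members at r = -0.09 to 0.08. The genes whose log2 levels were most like each member over the 16 arrays, among those with an SD of at least 0.2, differed from member to member. They were Slc48a1 (r = 0.96), a haem transporter, Slc35e3 (0.95) and Saxo4 (0.93) for Tkt, Arl6ip4 (0.93), Lsm4 (0.93) and Commd10 (0.91) for Taldo1, Dnai4 (0.89), Mdfi (0.87) and Prkar2a (0.86) for Me1, and Cryga (0.84), Crygd (0.83) and Clec1b (0.78) for Idh1. About 6558 genes were ranked for each, and all points share array, treatment and day.

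The 2 genes most like Idh1 were gamma-crystallin genes, known for lens structural proteins. In the RefSeq annotation Cryga is the gene next to Idh1, and Crygd lies 4 genes away on the same side. Cryga was 0.41, 0.32 and 3.69 on the ANP arrays of day 14, against 8.72, 0.50 and 5.67 on the VC arrays. It was 0.63, 5.27 and 0.46 on the ANP arrays of day 28, against 0.81, 1.57 and 0.86 on the VC arrays. ANP replicate 3 of day 14, ANP replicate 2 of day 28 and VC replicates 1 and 3 of day 14 were thus high for both genes. The neighbours were looked at after these values were seen. Of the genes within 10 places on either side, 5 others were well above background on all arrays, with r from -0.31 to 0.48 to Idh1, the highest for Acadl. Over the 12 single-animal arrays r was 0.75 for Acadl and 0.90 for both Cryga and Crygd. The gamma-crystallin genes are close copies of one another, and signal shared between their probes was not tested.

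**Figure D4:**
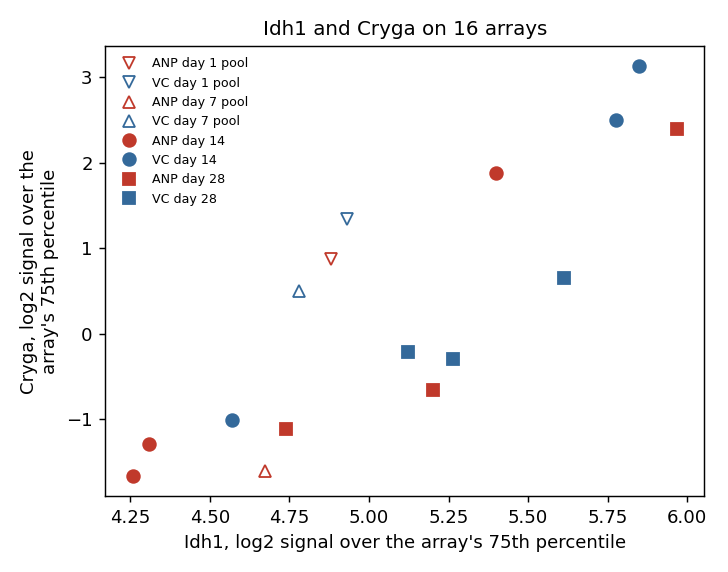
Log2 level of Cryga against that of Idh1, each over the array's 75th percentile, on the 16 arrays, with ANP in red and VC in blue. Open triangles are pools. Both treatments have arrays at the low and at the high end of the range, and r was 0.84.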

How the data were processed

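Total RNA was labelled with Cy3 and run on 1-colour Agilent rat arrays, per the labels' protocols, and read with Agilent Feature Extraction 10.7, as the submitters' processing notes name it. Scanner files hold processed signal intensity, from which the authors' software had subtracted background, per the file headers. A deposited value table, found to be the ratio of that signal to each array's 75th percentile, served as an alternative. Starting from the deposited intensity, log2 values minus that percentile were taken with no pseudocount, leaving out outlier spots. RefSeq accessions named 27460 of 61657 probes (15284 genes), and each gene was read from its probe of highest mean. limma 3.58.1 (R 4.3.3) was fitted to 4 group means over 12 arrays and 11849 genes, those with a detected probe throughout at least 1 group, with Benjamini-Hochberg adjustment at 0.05, and was checked on simulated data. Pools were compared by fold alone. Array number limits the precision, and p-values measure the spread between single animals. Other scalings, filters, probe rules, weights, slide terms and omissions of 1 array were tried. In related lists, genes past the threshold were named first, then others as values, and for each member the 3 genes most alike. Members and lists were chosen with earlier results of these data known. Since the array annotation names an older genome build, coordinates are those of the GRCr8 promoter windows. Some genes of the related lists are not reported here.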

Additional observations from a re-analysis of the deposited data

How the results depend on the processing

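Of 742 recomputed values, 608 kept their direction and side of the threshold, or for counts stayed within 1.5 times. At day 14, array weights called Tkt (0.87) and so 1 gene. At day 28 Me1 was not called with quantile normalisation (0.60), normexp (0.66), no filter on dim probes (0.73), the 2 groups alone (0.73) or the replicate block (0.73), nor was Taldo1 (0.26, 0.13, 0.38, 0.38 and 0.38 in the same order), so each of these 5 left 0 members called. Array weights called Tkt (0.62), and Idh1 turned positive with array weights (0.32) and median scaling (0.031). For the mean of both days, Me1 was lost with quantile normalisation (0.42), normexp (0.44) and no filter (0.49), and Tkt with quantile normalisation (0.49), which left 1 member called. The difference between the days turned negative for Taldo1 under normexp (-0.10). For VC day 28 minus VC day 14, Me1 was called with median scaling (-0.59), normexp (-0.78), the filter on all 12 arrays (-0.60), the mean of probes (-0.64), an intensity trend (-0.60), array weights (-0.56) and slide as a random block (-0.63), Tkt with the trend (0.65), array weights (0.73) and the random block (0.68), and Idh1 turned positive with array weights (0.16). With slide as a fixed block that difference was -0.33 for Me1 and 0.37 for Tkt, with 0 genes called.

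Leaving out 1 array at a time gave 0.62 to 0.89 for Me1, 0.33 to 0.45 for Taldo1, 0.26 to 0.63 for Tkt and -0.36 to 0.25 for Idh1 at day 28, with 0 to 1 members called. At day 14 it gave 0.14 to 0.39 for Me1, 0.12 to 0.25 for Taldo1, 0.72 to 0.97 for Tkt and -1.16 to -0.52 for Idh1. The difference between the days was 0.34 to 0.64 for Me1, 0.13 to 0.27 for Taldo1, -0.56 to -0.19 for Tkt and 0.38 to 1.13 for Idh1. For the mean of both days it gave 0.43 to 0.57 for Me1, 0.25 to 0.31 for Taldo1 and 0.54 to 0.72 for Tkt, with 0 to 3 called. For VC day 28 minus VC day 14 it gave -0.76 to -0.46 for Me1, 0.56 to 0.81 for Tkt and -0.48 to 0.16 for Idh1. The related lists, checked after seeing the data, held at day 28 under the alternatives except that the pentose phosphate list had 0 calls with no filter or the 2 groups alone and 2 with array weights or slide as a random block, against 1, and the reductases 3 with the 2 groups alone. Without 1 array they had 0 to 1, 1 to 4 (other NADPH supply) and 2 to 7 (reductases) calls.

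No label ties arrays of the same replicate number to a shared litter, batch or day, and deviations of same-numbered arrays correlated at -0.07 to 0.14 over 6 pairs. The replicate block gave 472 genes higher and 311 lower at day 28, against 532 and 319 without it, and at day 14 23 and 13 against 43 and 14. Genes higher and lower at day 28 also differed by over 1.5 times, in at least 1 direction, with array weights (1520 and 1128), slide as a random block (1098 and 761), the 2 groups alone (216 and 215) and normexp (675 and 571), and median scaling gave 773 and 244. At day 14 this held for array weights (106 and 49), slide as a random block (88 and 45), normexp (69 and 50), quantile normalisation (48 and 23), an intensity trend (61 and 24), the mean of probes (32 and 8), the 2 groups alone (12 and 8), no filter (21 and 7) and slide as a fixed block (0 and 0). Leaving out 1 array of the day gave 0 to 46 higher and 1 to 26 lower at day 14, and 146 to 488 and 62 to 271 at day 28. Array weights gave 1354 and 950 for the mean of both days, against 728 and 483. Slide as a fixed block could not be fitted at day 28, where slide and treatment coincide.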

Other observations

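At day 28, when limma called 4.49% of all genes higher and 2.69% lower, 0 of 22 glycolysis genes were called, with a median log2 ratio of 0.02. Averaged over both days, 1 of the 22 was called higher and 1 lower, beside 6.14% and 4.08% of all genes. Aldoa, an aldolase, rose by 0.34 ± 0.06 (limma adjusted p = 0.011) and Slc2a2, a glucose transporter of proximal tubule, fell (-0.79 ± 0.22, adjusted p = 0.0457). Of 12 genes that handle citrate, isocitrate and malate, Pc, pyruvate carboxylase, was the 1 called at day 28 (-0.53 ± 0.14, adjusted p = 0.0457). For the mean of both days 1 of these 12 was called higher and 1 lower, beside the same shares of all genes. Cs, citrate synthase, rose (0.20 ± 0.05, limma adjusted p = 0.0285).

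Thrsp, a regulator of lipid synthesis in liver and fat, had a log2 ratio of 3.33 on day 1, -0.63 on day 7 and 0.43 ± 0.27 at day 28 (limma adjusted p = 0.338). Fasn had 0.36 on day 1 and -0.11 on day 7. Scd, a fatty acid desaturase, was well above background on 5 of 16 arrays, and no ratio is given for it. The mean log2 level of 6 adipocyte markers was -0.13 in the ANP pool and -1.18 in the VC pool of day 1. Their part in the difference was not tested.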
